A study of Mus musculus with 16 samples.

Results

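The genes described here encode the digestive enzymes and the structural proteins of the intestinal brush border, the carpet of microvilli on the luminal face of absorptive enterocytes. They were chosen as a fixed list of 34 genes by name, each read from its brightest probe set with 1 gene symbol. The array named 33 of the 34, each through 1 probe set, among 22180 genes in all. The remaining gene, Ggt1, was not analysed here. All 33 passed the filter on dim genes, which kept 18095 genes, although the enteropeptidase gene Tmprss15 passed only through its mean in co-cultured organoids.

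The samples came from the small intestine of C57Bl/6 mice aged 8 to 10 weeks, all labelled male. Wild-type crypt epithelium grown as organoids was profiled in monoculture (n = 2, animals P28 and P30) and in co-culture with wild-type intestinal myofibroblasts (n = 2, the same animals). The myofibroblasts were profiled in monoculture (n = 3, animals Pl_I, Pl_II and Pl_III) and in co-culture with organoids (n = 3, the same animals). In co-culture the cells shared medium for 24 h but were kept apart by an insert with 0.4 µm pores. Adenoma cells came from 4 animals carrying the heterozygous Apc allele Apc+/1638N (P21, P23, P34 and P36). The titles of P21 and P23 hold the tag T2, whose meaning the labels do not state, and the labels do not say whether adenoma cells were cultured. Genotype, tissue of origin and any difference in culture therefore cannot be told apart in comparisons of adenoma with organoids.

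A microvillus is a finger of membrane around a bundle of actin filaments. Villin, espin, plastin and EPS8 bundle or cap the filaments, ezrin and class I myosins tie the bundle to the membrane, and a complex of protocadherins, harmonin and a class VII myosin links the tips of neighbouring microvilli. The membrane carries the enzymes that finish the digestion of sugars, peptides, phosphate esters and lipids, and these enzymes are made mainly by mature enterocytes on the villus rather than by crypt cells. Whole cells were lysed, so fewer enterocytes and less RNA per enterocyte cannot be told apart.

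Values are log2 levels, on which a step of 1 is a 2-fold change, and levels are compared between samples for a gene, not between genes. Differences are given ± SE from limma, with the animals above as n and p-values adjusted by the Benjamini-Hochberg method over the 18095 genes. The median level of an array lay between 3.48 and 3.58, and levels under 2.67, the 30th percentile of all probe sets, are called dim. Epithelial markers averaged 10.9 ± 0.0848 (SD, n = 2) in monocultured organoids, 10.5 ± 0.575 (SD, n = 4) in adenoma and 3.53 ± 0.208 (SD, n = 3) in myofibroblast monoculture, against 3.29, 3.03 and 10.1 for fibroblast markers. Xist was high (7.57 to 8.29) and the Y-linked Eif2s3y low (2.53 to 3.20) in 4 samples, both cultures of P28 and of Pl_III, although all were labelled male. The other 10 samples had Xist at 1.87 to 2.81 and Eif2s3y at 7.37 or more. Calls of the listed brush border genes that changed without P28 and Pl_III, and their counts, are therefore also given without these animals. For other genes, only some of the calls that changed are given.

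In monocultured organoids 28 of the 33 genes had a mean above 8, and Tmprss15 alone lay under the dim level. In adenoma 8 genes kept a mean above 8, namely Vil1, Eps8, Pls1, Myo1a, Myo1d, Ezr, Cdh17 and Lgals4, while 3 were dim, although the mean of Cdh17 lay between animals that were far apart. In myofibroblasts only Anpep and Myo1d passed 8, and 10 genes were dim in monoculture. The brush border genes were thus bright in organoids, unevenly kept in adenoma and mostly low in myofibroblasts.

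**Figure D1:**
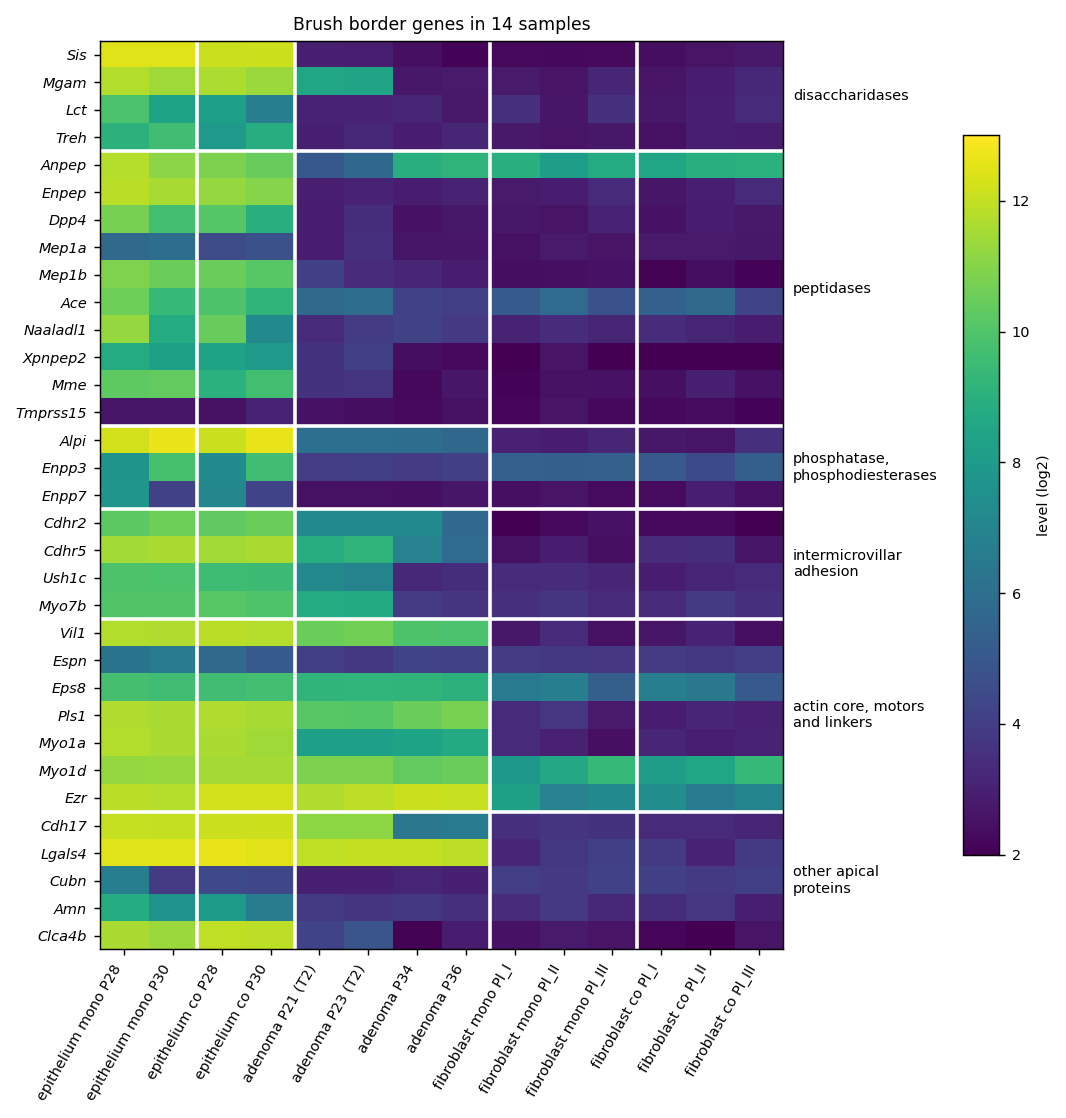
Levels (log2, colour) of 33 brush border genes (rows, grouped by role) in 14 biological samples (columns, grouped by condition; arrays of 1 animal averaged). By means above 8, monocultured epithelium is bright for 28 genes and co-cultured epithelium for 26, and 8 structural and surface rows stay bright in adenoma. Mgam, Ush1c, Myo7b and Cdh17 differ between the adenoma animals tagged T2 and the others.

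The organoid animals differed from each other in a few enzymes and carriers, in both cultures alike. In 6 of 33 genes P28 and P30 lay more than 1 apart in the same direction in monoculture and co-culture. Enpp7, the alkaline sphingomyelinase, read 7.75 in P28 and 4.17 in P30 in monoculture, and 7.08 and 4.22 in co-culture. Naaladl1, a peptidase related to glutamate carboxypeptidase, read 11.28 and 8.78 in monoculture and 10.45 and 7.23 in co-culture. Lct, Dpp4 and Amn were also higher in P28, while Enpp3, an ectonucleotide phosphodiesterase, was higher in P30 (7.70 and 9.81 in monoculture, 7.31 and 9.62 in co-culture). Another 19 genes differed by less than 0.5 in both cultures, among them all 4 of the adhesion complex, the actin core genes other than Espn, and the enzymes Sis, Mgam, Enpep, Mep1a, Mep1b and Xpnpep2. With 1 culture of each kind per animal these gaps have no test, and the animals also differ in Xist.

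Whether soluble contact with myofibroblasts changed the brush border programme was the question of the organoid co-culture. The test called few genes. Of 33 genes 0 were called higher and 2 lower, the meprin subunit Mep1a and the actin bundler Espn, against 2.71% of all genes called higher and 1.32% called lower. The median difference was -0.31, against -0.02 over all genes tested, and -0.15 without P28 and Pl_III. An unadjusted p under 0.05 was found for 6 of 33 genes, 18.2%, which is near the 16.9% of all genes. Values were lower in co-culture in both animals for 20 genes, higher in both for 6 and opposite for 7. The same count was not taken over all genes, so it does not set these genes apart from others.

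Mep1a, a subunit of the metalloprotease meprin A, read 5.79 and 5.97 in monoculture and 4.54 and 4.71 in co-culture (P28, then P30). The groups did not overlap, and the difference was -1.25 ± 0.25 (limma, adjusted p = 0.0185). Espn, which encodes the bundling protein espin, read 6.22 and 6.53 in monoculture and 5.81 and 5.16 in co-culture, a difference of -0.89 ± 0.22 (adjusted p = 0.0423). Its fall was larger in P30 (-1.37) than in P28 (-0.41). Neither gene was called without P28 and Pl_III, when the count fell from 2 to 0 (0.0829% of all genes were called lower) and each epithelial group was 1 sample assumed to vary like the others. Leaving out any of the 4 organoid samples ended the call of Mep1a (adjusted p of up to 0.281 over all alternatives), and leaving out any but the co-culture sample of P28 ended that of Espn (adjusted p of up to 0.303).

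All 4 disaccharidases had negative differences and none was called. Lct, lactase, read 9.86 and 8.38 in monoculture against 8.19 and 6.69 in co-culture. It was lower by about the same step in both animals (-1.67 in P28 and -1.69 in P30), yet the animals themselves lay as far apart, and the difference of -1.68 ± 0.52 was not called (adjusted p = 0.104). Treh, trehalase, read 9.06 and 9.63 against 7.89 and 8.84, a difference of -0.98 ± 0.29 (adjusted p = 0.0894). Sis, sucrase-isomaltase, was -0.34 ± 0.24 and Mgam, maltase-glucoamylase, -0.09 ± 1.68.

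Mono- and co-cultures share animals, per the labels, and a fit that took each animal as a replicate block called 6 of 33 genes lower, with 2.54% of all genes called lower and 5.03% higher. They were Lct (-1.68 ± 0.23, adjusted p = 0.00365), Amn (-0.89 ± 0.15, adjusted p = 0.00829), Treh (-0.98 ± 0.20, adjusted p = 0.0189), Mep1a (-1.25 ± 0.27, adjusted p = 0.0254), Enpep (-0.57 ± 0.13, adjusted p = 0.0323) and Naaladl1 (-1.19 ± 0.28, adjusted p = 0.0364). Espn was not called there (adjusted p = 0.0517). The 5 genes added are enzymes and a carrier: Enpep is glutamyl aminopeptidase, and Amn, amnionless, anchors the vitamin B12 receptor.

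Of all peptidases, those above included, 9 of 10 had a negative difference in co-culture, with a median of -0.64. Mme, neprilysin, read 10.25 and 10.37 in monoculture and 9.04 and 9.68 in co-culture, and was not called (-0.95 ± 0.42, adjusted p = 0.270). Dpp4, dipeptidyl peptidase 4, lay at -0.72 ± 0.42 and Anpep, aminopeptidase N, at -0.78 ± 1.11, both with adjusted p of 0.437 or more. The 3 phosphatase and phosphodiesterase genes lay between -0.31 and -0.09.

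Apart from Espn, Ezr, Ush1c and Myo1d the structural genes described here stood near 0, and a difference between enzymes and structural genes was not tested. The 4 genes of the intermicrovillar adhesion complex had a median of 0.02 and none was called. Among them Ush1c read 9.92 and 9.87 in monoculture and 9.60 and 9.52 in co-culture, which did not overlap. Vil1, villin, read 11.74 and 11.67 in monoculture and 11.84 and 11.76 in co-culture, and Pls1, plastin 1, read 11.69 and 11.59 against 11.67 and 11.58. Ezr, ezrin, read 11.84 and 11.76 against 12.26 and 12.23, which did not overlap, but its difference of 0.45 ± 0.37 was not called (adjusted p = 0.619). Myo1d read 11.27 and 11.29 against 11.51 and 11.52, and Clca4b, an apical protein, 11.62 and 11.36 against 11.96 and 11.90. For both genes the cultures did not overlap, and neither was called. Of the 5 other apical and surface genes, Clca4b among them, 3 had a positive difference and 2 a negative one. The shared spread of the fit takes in the adenoma animals, so the SE of genes that split among those animals is wide (1.68 for Mgam and 1.38 for Cdh17). It takes in the myofibroblasts too, where the SD of Ezr was 0.71 in monoculture, against 0.18 in adenoma and 0.06 in monocultured organoids.

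Markers of other epithelial types moved little with co-culture. Goblet markers averaged 10.98 in monoculture and 11.1 in co-culture, Paneth markers 10.5 and 10.4, and 0 of 6 and 0 of 4 were called (0 in each list with an unadjusted p under 0.05). The epithelial list lay at 10.9 and 11.3, with 0 of 9 called and 1 at an unadjusted p under 0.05.

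**Figure D2:**
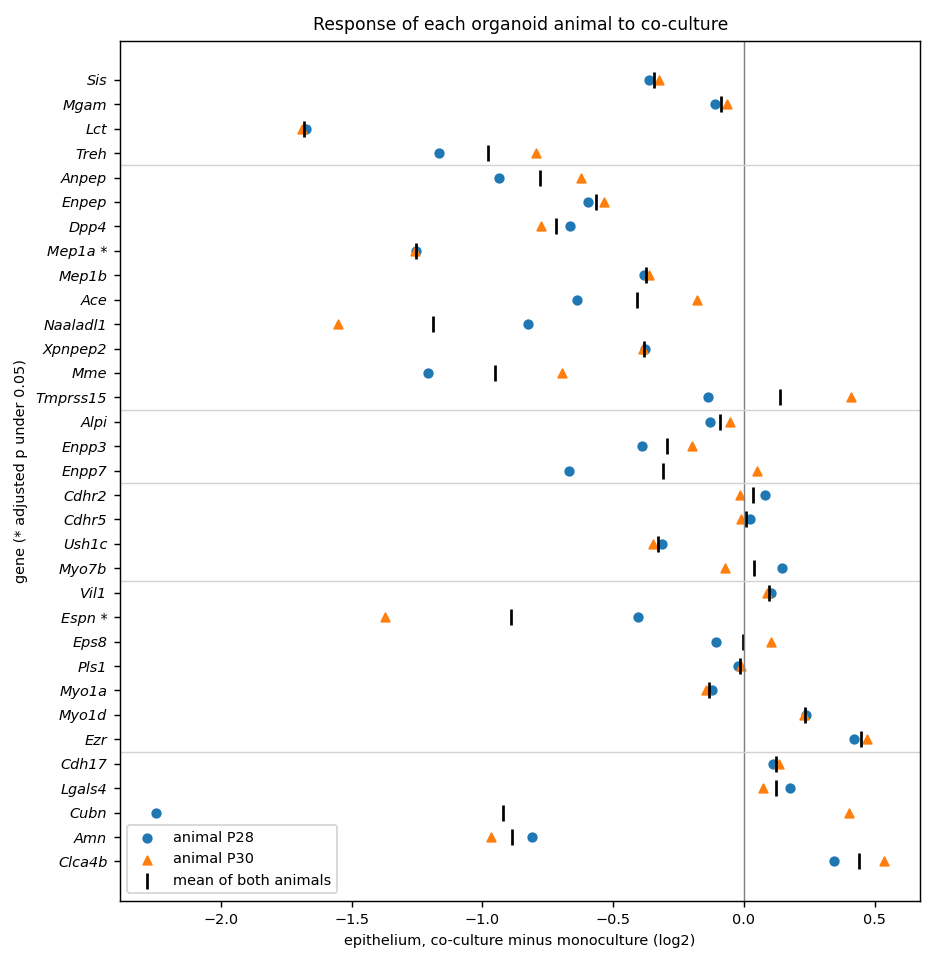
Difference between co-cultured and monocultured epithelium (log2) for each of 33 genes (rows, in the same order of roles) in animal P28 (circles) and animal P30 (triangles), with the mean of both (bars). Enzymes in the upper rows lie mostly left of 0, with both animals near -1.68 for Lct and -1.25 for Mep1a, most structural genes lie near 0, and Cubn and Espn differ between the animals.

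In myofibroblasts 0 of 33 genes were called in either direction by limma on co-culture with organoids (0 with an unadjusted p under 0.05), against 0% of all genes called higher and 0.00553%, 1 gene, called lower. The median was -0.06, and 513 of all genes had an unadjusted p under 0.05. The difference between the epithelial and the fibroblast response was called for 0 of 33 genes, against 0.834% of all genes called higher and 0.271% called lower. It was -1.39 ± 0.33 for Mep1a (adjusted p = 0.0732), and 4 of 33 genes had an unadjusted p under 0.05, 12.1% against 12.7% of all genes.

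In adenoma cells most brush border enzymes lay far below their level in organoids, while part of the actin core was kept. Against monocultured organoids 28 of 33 genes were called lower and 0 higher, with 18.5% of all genes called lower and 22.5% called higher. The median of the 33 genes was -4.22, against -0.03 over all genes. Against co-cultured organoids 27 genes were called lower and 0 higher, with 14.3% and 19.0% of all genes called lower and higher, and the median was -3.79. These comparisons share the adenoma samples. Cyclic loess scaling turned the balance over all genes from 4069 higher and 3353 lower to 3494 higher and 3873 lower in the first comparison and from 3439 and 2583 to 2729 and 3109 in the second, with 28 and 29 of the 33 genes lower and 0 higher. All adenoma animals lay below both monocultured organoid samples for 32 of the 33 genes, against 27.7% of all genes, and above them for 0, against 28.7%.

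Markers of other epithelial cells also differed in adenoma. Goblet markers had negative differences from monocultured organoids in 6 of 6 genes (median -3.53, 2 called lower) and Paneth markers in 4 of 4 (median -4.11, 1 called lower), with the adenoma animals far apart. Of 4 crypt stem cell markers 1 was called, Ascl2, a stem cell transcription factor, which rose by 4.51 ± 0.29 (adjusted p = 2.4e-07) and read 8.65, 8.45, 8.26 and 8.52 in adenoma against 4.15 and 3.76. Lgr5, a stem cell receptor, differed by 0.55 ± 0.25 (adjusted p = 0.0980). The part of cell composition in the fall of the brush border genes was not tested.

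The disaccharidases fell in 4 of 4 genes, with a median of -6.20. A gene near the dim level cannot be read much lower, so the size of its fall is a lower bound. Of the 28 genes called lower, 9 had an adenoma mean no higher than the highest monocultured myofibroblast sample. Among these, Lct, Enpep and Dpp4 were near the dim level in both groups. Anpep, Ace, Enpp3 and Cubn averaged 8.64, 5.25, 5.36 and 3.97 in monocultured myofibroblasts, so that level is no floor for them. Groups are not ranked by their medians. The promoter stretches below, 250 bases upstream of the RefSeq start in build GRCm38.p6, are shown because these 4 genes fell together while Mgam was kept in part in some animals, and Alpi because it was bright in organoids and fell too. They lie at chr3:72967864-72968113 on the minus strand (Sis), chr6:40628581-40628830 on the plus strand (Mgam), chr1:128328319-128328568 on the minus strand (Lct), chr9:44672983-44673232 on the plus strand (Treh) and chr1:87101607-87101856 on the minus strand (Alpi). Capitals mark letters searched on both strands: TTTATG for CDX factors, CAAAGTCCA or CAAAGTTCA for HNF4 and AGATAA for GATA factors.
Sis: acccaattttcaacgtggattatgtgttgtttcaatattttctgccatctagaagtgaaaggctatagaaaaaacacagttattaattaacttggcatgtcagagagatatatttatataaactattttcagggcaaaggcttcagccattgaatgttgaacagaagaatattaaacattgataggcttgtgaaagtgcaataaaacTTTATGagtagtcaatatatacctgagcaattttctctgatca
Mgam: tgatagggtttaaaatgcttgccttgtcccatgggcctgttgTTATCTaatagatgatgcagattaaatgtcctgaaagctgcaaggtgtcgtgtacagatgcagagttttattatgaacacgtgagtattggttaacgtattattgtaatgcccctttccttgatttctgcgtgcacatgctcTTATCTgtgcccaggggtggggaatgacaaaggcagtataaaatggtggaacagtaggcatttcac
Lct: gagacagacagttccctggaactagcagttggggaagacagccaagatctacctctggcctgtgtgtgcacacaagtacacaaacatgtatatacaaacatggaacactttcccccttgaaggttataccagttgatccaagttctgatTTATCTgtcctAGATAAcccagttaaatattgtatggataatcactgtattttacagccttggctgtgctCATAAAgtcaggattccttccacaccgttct
Treh: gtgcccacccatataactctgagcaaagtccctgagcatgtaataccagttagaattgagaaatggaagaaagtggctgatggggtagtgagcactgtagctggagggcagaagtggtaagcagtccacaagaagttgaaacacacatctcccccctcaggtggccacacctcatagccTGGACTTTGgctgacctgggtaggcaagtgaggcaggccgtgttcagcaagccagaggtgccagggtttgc
Alpi: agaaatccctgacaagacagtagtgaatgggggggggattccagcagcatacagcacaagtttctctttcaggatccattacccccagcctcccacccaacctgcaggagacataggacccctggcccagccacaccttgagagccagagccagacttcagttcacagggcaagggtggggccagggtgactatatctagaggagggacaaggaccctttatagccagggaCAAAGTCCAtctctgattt
Sis held a CDX match starting 43 bases before the start, Lct held a CDX match at 31 and GATA matches at 101 and 90, Mgam held GATA matches at 208 and 66, and Treh and Alpi held an HNF4 match at 71 and 19. No matches overlapped in these stretches. RefSeq promoters were found for 28 of the 34 listed genes. CDX letters lay in 21.4% of these against 12.4% of all genes, HNF4 letters in 7.14%, which is 2 genes, against 0.836%, and GATA letters in 17.9% against 11.4%. All the stretches shown held a match, but not all genes that fell did. Enpep and Mme held none, and Dpp4 and Clca4b held 1 each. A match is a string of letters, not a bound site.

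Sis, which splits sucrose and isomaltose, read 12.47 in both monocultured samples and 2.95, 2.91, 2.46 and 2.10 in adenoma (P21, P23, P34 and P36). Its mean in adenoma was dim, so its difference of -9.86 ± 0.21 (adjusted p = 2.57e-11) is a lower bound on the size of the fall. Lct read 3.05, 3.10, 3.13 and 2.75 in adenoma and fell by 6.11 ± 0.45 (adjusted p = 6.4e-07). Treh read 2.98, 3.26, 2.82 and 3.17 and fell by 6.29 ± 0.25 (adjusted p = 3.88e-09). All 4 adenoma animals were close to the dim level for these enzymes.

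Mgam was the exception among the sugar enzymes. It read 11.74 and 11.41 in monocultured organoids, 8.45 and 8.44 in the adenoma animals P21 and P23, and 2.71 and 2.81 in P34 and P36. Every adenoma animal lay below the organoids, but the 2 pairs lay far apart, so the difference of -5.97 ± 1.45 (adjusted p = 0.00542) describes neither. Against monocultured organoids it was -3.13 ± 0.26 without P34 and P36 and -8.82 ± 0.26 without P21 and P23.

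Peptidases fell in 9 of 10 genes, with a median of -5.82. Enpep read 11.87 and 11.56 in organoids and between 2.83 and 3.07 in adenoma, a fall of 8.75 ± 0.20 (adjusted p = 5.32e-11). Dpp4, which trims dipeptides and inactivates incretins, fell by 7.34 ± 0.36, the meprin subunit Mep1b by 7.34 ± 0.27 and Mme by 7.28 ± 0.36. Mep1a was less bright in organoids and fell by 2.96 ± 0.22. Ace, angiotensin-converting enzyme, and Xpnpep2, membrane-bound aminopeptidase P, fell by 4.99 ± 0.63 and 5.42 ± 0.47. The member not called was Tmprss15, which activates trypsinogen and which lay at 2.65 and 2.68 in monoculture and between 2.28 and 2.54 in adenoma.

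Anpep, the abundant brush border aminopeptidase N, was lower in P21 and P23 than in P34 and P36. It read 11.77 and 11.07 in monocultured organoids, 5.03 and 5.73 in P21 and P23, and 8.90 and 9.16 in P34 and P36. The fall over all 4 animals was -4.22 ± 0.96 (adjusted p = 0.00365), and it was -6.04 ± 0.35 without P34 and P36 and -2.39 ± 0.31 without P21 and P23.

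All 3 phosphatase and phosphodiesterase genes fell. Alpi, intestinal alkaline phosphatase, read 12.24 and 12.68 in organoids and 6.03, 6.01, 5.98 and 5.72 in adenoma, well above the dim level, and fell by 6.53 ± 0.24 (adjusted p = 2.43e-09). Enpp3 lay between 3.93 and 4.07 in adenoma and fell by 4.75 ± 0.59. Enpp7 was dim in adenoma and fell by 3.43 ± 0.83 (adjusted p = 0.00533), a call lost without the monoculture sample of P28 (adjusted p = 0.114), the organoid animal in which it was bright.

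The intermicrovillar adhesion complex fell in 4 of 4 genes, with a median of -3.80. Cdhr2, a protocadherin of the microvillus tip, read 10.25 and 10.56 in organoids and 7.22, 7.26, 7.30 and 5.77 in adenoma, a fall of 3.52 ± 0.41 (adjusted p = 2.3e-05). Its partner Cdhr5 read 11.46 and 11.59 against 8.86, 9.17, 6.86 and 5.84, a fall of 3.84 ± 0.73 (adjusted p = 0.00104). Ush1c, the scaffold harmonin, and Myo7b, the motor that carries the complex, fell by 4.70 ± 0.96 and 3.75 ± 1.26 with animals widely apart. The call of Myo7b (adjusted p = 0.0315) was lost in 6 of 18 alternatives, among them each fit that left out P34 alone, P36 alone or a monocultured organoid sample, while the fit without both P34 and P36 called it.

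The actin core and its linkers stood closer to the organoids, with 4 of 7 genes called lower and a median of -1.25. Vil1 read 10.55, 10.66, 9.93 and 9.85 in adenoma and fell by 1.46 ± 0.28 (adjusted p = 0.00101). Pls1 read 10.13, 10.09, 10.55 and 10.81 and fell by 1.25 ± 0.25 (adjusted p = 0.00152). Myo1a, the brush border myosin, read 11.74 and 11.59 in organoids and 8.21, 8.19, 8.40 and 8.71 in adenoma, a fall of 3.29 ± 0.22 (adjusted p = 3.51e-07). Espn lay between 3.79 and 4.23 in adenoma and fell by 2.31 ± 0.19.

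Ezr, Eps8 and Myo1d were not called. Ezr read 11.70, 11.88, 12.10 and 12.06 in adenoma and overlapped the organoids. Its difference was 0.14 ± 0.32 (adjusted p = 0.784), a value that changed sign under cyclic loess scaling (-0.02) and against co-cultured organoids (-0.31 ± 0.32). Eps8, an actin capping and bundling protein, read 9.74 and 9.62 in organoids and 9.19, 9.24, 9.21 and 9.08 in adenoma, a difference of -0.50 ± 0.42 (adjusted p = 0.395). Myo1d, a second class I myosin of microvilli, differed by -0.65 ± 0.38 (adjusted p = 0.205). Eps8 and Myo1d, with Lgals4, were called lower when only organoids and adenoma were fitted, so these p-values do not show that the levels were equal.

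Of the 5 other apical proteins 4 fell. Lgals4, galectin 4, a lectin that clusters brush border glycoproteins, read 12.46 and 12.45 in organoids and 11.93, 11.99, 11.98 and 11.91 in adenoma, which did not overlap, and its difference of -0.50 ± 0.25 was not called (adjusted p = 0.130). Clca4b, a chloride channel accessory protein, read 11.62 and 11.36 against 4.20, 4.89, 2.07 and 2.82, and fell by 7.99 ± 0.59 (adjusted p = 6.49e-07). Amn fell by 4.49 ± 0.39 and Cubn, cubilin, its partner in the vitamin B12 receptor, by 2.30 ± 0.51. Cubn was bright in 1 organoid sample only, at 6.69 in monocultured P28 against 3.92, 4.44 and 4.32 in the others, and it was not called against co-cultured organoids (-1.37 ± 0.51, adjusted p = 0.0581). Cdh17, the liver-intestine cadherin, read 12.02 and 12.01 in organoids and fell by 3.24 ± 1.20 (adjusted p = 0.0476), and 8 of 18 alternatives did not call it. Its difference was -0.89 ± 0.13 without P34 and P36 and -5.59 ± 0.14 without P21 and P23.

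Without P28 and Pl_III 24 of 33 genes were called lower against either organoid culture, with 14.1% of all genes called lower against monoculture and 9.26% against co-culture. The calls lost were Anpep, Cdh17, Mgam and Myo7b against monoculture, and these with Ush1c against co-culture. Cubn was added there, as was Tmprss15, which had passed the filter through the same co-cultures, where it read 2.51 and 3.09, and whose call there rests on P30 alone.

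**Figure D3:**
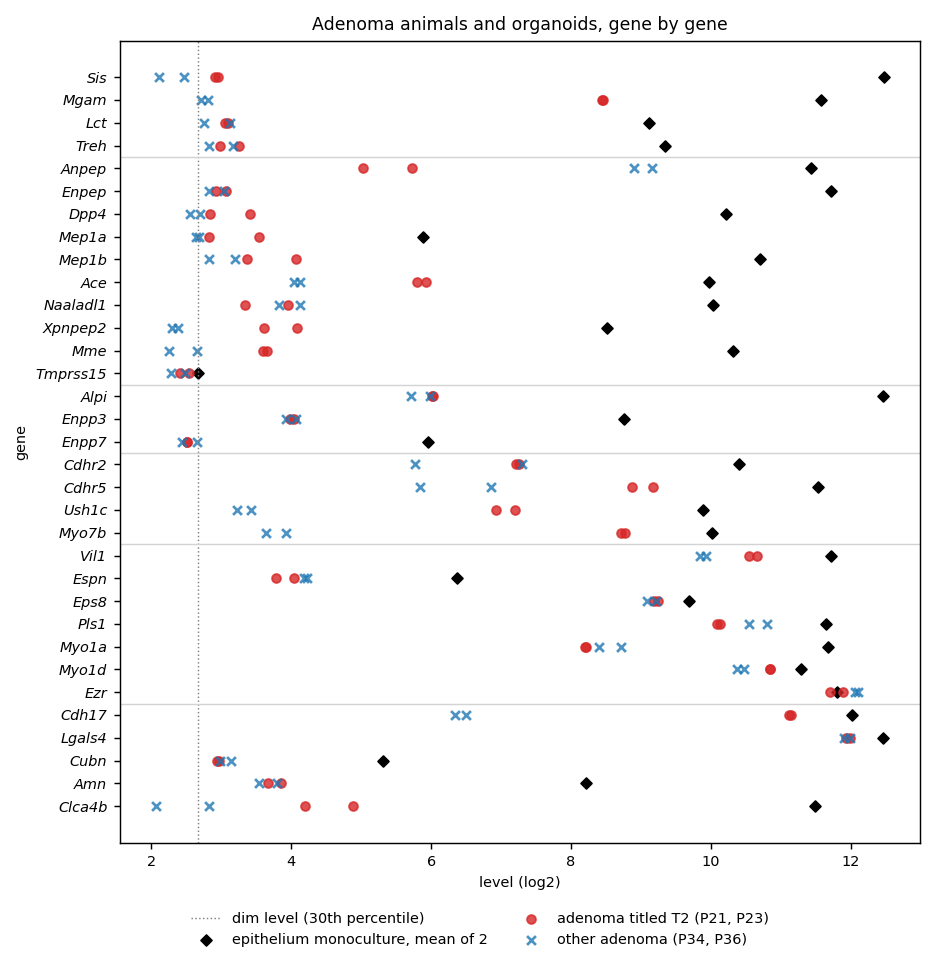
Levels (log2, horizontal axis) of 33 genes (rows, grouped by role) in adenoma animals P21 and P23, whose titles hold T2 (red circles), and P34 and P36 (blue crosses), with the mean of 2 monocultured organoid samples (black diamonds) and the dim level (dotted line). Most enzymes lie near the dotted line in all 4 animals, Vil1, Eps8, Pls1, Myo1d, Ezr and Lgals4 lie near the diamonds, and Mgam, Ush1c, Myo7b, Cdh17 and Anpep fall into 2 separate pairs.

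The adenoma animals fell into these pairs for some of the genes. P21 and P23 lay within 1 of each other for all 33 genes, and P34 and P36 for 31, the exceptions being Cdhr2 and Cdhr5. Between the pairs 9 of 33 genes were called higher and 1 lower in the animals tagged T2, against 3.65% and 3.49% of all genes called higher and lower, in a fit of 6 groups with 2 animals on each side. The median of the 33 genes was 0.17, and 23 of 33 were not called. An unadjusted p under 0.05 was found for 15 of 33 genes by limma, 45.5%, against 16.6% of all genes.

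Among enzymes the split was marked for Mgam, higher in T2-tagged animals by 5.69 ± 0.24 (adjusted p = 6.93e-08), while Lct, Treh, Enpep, Alpi and Enpp3 differed by 0.17 or less with adjusted p of 0.922 or more. Of these, Lct, Treh and Enpep lay near the dim level in every adenoma animal, where a difference between the pairs could be hidden. Xpnpep2 was higher by 1.50 ± 0.32 and Mme by 1.17 ± 0.25 (adjusted p = 0.0151 and 0.0134). Both were dim in P34 and P36, at 2.39 and 2.30 for Xpnpep2 and 2.25 and 2.65 for Mme. Ace read 5.79 and 5.92 in P21 and P23 and 4.12 and 4.04 in P34 and P36, a difference of 1.77 ± 0.52 that was not called (adjusted p = 0.0704) but was called without P28 and Pl_III. Sis was higher by 0.65 ± 0.15 (adjusted p = 0.0239) at levels around the dim level. Anpep was lower by 3.65 ± 0.33 (adjusted p = 3.83e-05). The calls of Sis, Xpnpep2 and Mme were lost on leaving out single adenoma animals, and that of Sis in 7 of 13 alternatives, among them the fit without P28 and Pl_III.

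The adhesion complex was called in 3 of 4 genes. Ush1c read 7.19 and 6.93 in P21 and P23 and 3.22 and 3.43 in P34 and P36, a difference of 3.74 ± 0.17 (adjusted p = 9.06e-08). Myo7b read 8.76 and 8.71 against 3.92 and 3.65, a difference of 4.95 ± 0.18 (adjusted p = 2.18e-08). Cdhr5 was higher by 2.67 ± 0.33 (adjusted p = 4.36e-04) and Cdhr2 by 0.70 ± 0.44, which was not called (adjusted p = 0.534) with P36 alone low. In P34 and P36 the scaffold and the motor of the complex were thus near the levels of myofibroblasts, where Ush1c lay between 3.18 and 3.39 in monoculture, while both protocadherins read 5.77 or more.

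Cdh17 read 11.14 and 11.11 in P21 and P23 and 6.34 and 6.50 in P34 and P36, a difference of 4.71 ± 0.13 (adjusted p = 3.02e-09), and Clca4b was higher by 2.10 ± 0.30 (adjusted p = 0.00123). None of the 7 actin core genes was called, 2 of them with an unadjusted p under 0.05 (Vil1 at 0.72 ± 0.25 and Pls1 at -0.57 ± 0.24).

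Markers of secretory cells moved with the same split. All 6 goblet markers were called higher in the T2-tagged animals, with the list at 9.50 and 10.1 there and at 4.33 and 5.06 in P34 and P36, against 10.98 in monocultured organoids. Zg16, a goblet lectin, was dim in P34 and P36. All 4 Paneth markers were also called higher, with the list at 10.2 and 10.7 against 3.49 and 3.66. The stem cell marker Olfm4 was higher by 4.06 ± 0.19 (adjusted p = 1.71e-07), and the other 3 of its list were not called. Of 9 epithelial markers 1 was called, with the list at a mean of 11.03 against 10.04 and a median difference of 0.21. The largest difference in that list was 7.13, for Cldn3, which read 11.40 and 11.28 in P21 and P23 and 4.15 and 4.26 in P34 and P36. Fibroblast markers lay between 2.94 and 3.29 in all 4 animals. The part of cell composition in the split of the brush border genes was not tested.

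Myofibroblasts gave the level these probes show in cells without a brush border. Against monocultured organoids 31 of 33 genes were lower and 0 higher in monocultured myofibroblasts, with 24.2% of all genes called lower and 26.5% called higher, and the median was -6.65. Without P28 and Pl_III 30 genes were lower, with 18.8% of all genes, and Anpep was not called. Cubn and Tmprss15 were not called (adjusted p = 0.0567 and 0.141). Sis differed by -10.21 ± 0.22 and Vil1 by -8.87 ± 0.29, and Vil1 lay between 2.52 and 3.31 in the 3 monocultures.

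Some members lay well above the dim level there, of which only Anpep and Myo1d had a mean above 8. Anpep read 8.99, 8.18 and 8.77 in monoculture (Pl_I, Pl_II and Pl_III) and 8.50, 8.90 and 9.004 in co-culture, which overlaps the 8.90 and 9.16 of adenoma animals P34 and P36. Myo1d read 7.85, 8.65 and 9.37, Ezr 8.27, 6.88 and 7.26, and Eps8 6.59, 6.71 and 5.33 in monoculture. Enpp3 lay at 5.36 ± 0.02 (SD, n = 3) and Ace at 5.25 ± 0.56, above their adenoma levels in P34 and P36. Anpep, Myo1d, Ezr and Eps8 were nevertheless called lower than in organoids, Anpep by 2.78 ± 1.02 (adjusted p = 0.0383). Of 13 alternatives 6 did not call it, among them each fit without a myofibroblast sample.

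Markers of macrophages and other immune cells were high in the myofibroblast cultures, at 9.20 ± 0.314 (SD, n = 3) in monoculture against 4.03 in monocultured organoids, with 11 of 11 called higher. Aminopeptidase N is also known from myeloid cells and fibroblasts. The part of immune cells in the Anpep and Ace levels of these cultures was not tested. In adenoma the same immune list lay at 4.09 ± 0.110 (SD, n = 4), between 3.95 and 4.22. Of its 11 genes 2 were called higher in adenoma than in monocultured organoids, Cd68 (6.44 against 4.09) and Cd14 (8.40 against 6.64), and 2 lower. Between the pairs of adenoma animals 1 of 11 was called, higher in the T2-tagged animals, and the part of immune cells in the Anpep level of P34 and P36 was not tested.

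Related genes not on the list were read from lists by function, to set the 33 genes against the rest of the brush border. Of 7 further enzymes 4 were tested, and 4 of 4 fell in adenoma against monocultured organoids. Dpep1, a membrane dipeptidase, fell by 6.35 ± 0.47, Asah2, neutral ceramidase, by 4.20 ± 0.21 and Plb1, a phospholipase, by 0.62 ± 0.15 at low levels. Akp3, the duodenal alkaline phosphatase, read 11.46 and 12.58 in organoids, 6.31 and 6.22 in P21 and P23, and 2.80 and 2.89 in P34 and P36. It fell by 7.46 ± 0.97 (adjusted p = 5.73e-05) and was higher in the T2-tagged animals by 3.41 ± 0.51 (adjusted p = 0.00164). Its close paralog Alpi differed between the pairs by 0.17 ± 0.29, and cross-hybridisation between these genes was not tested.

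Of 16 tested genes for microvillus assembly and apical traffic, 12 fell in adenoma, 1 rose and 3 were not called, with a median of -0.93. Without P28 and Pl_III 9 fell and 2 rose. Anks4b and Calml4, partners of harmonin in the adhesion complex, fell by 2.44 ± 0.20 and 2.38 ± 0.26, and Anks4b read 6.29, 6.42, 6.33 and 6.37 in the 4 animals, with a difference between the pairs of 0.00 ± 0.23. Baiap2l2, of the same list, fell by 5.08 ± 0.83 and was higher in the T2-tagged animals by 3.02 ± 0.39. Muc13, a transmembrane mucin, read 10.80 and 10.92 in P21 and P23 and 3.26 and 2.85 in P34 and P36, against 12.37 and 12.59 in organoids, and the difference between the pairs was 7.81 ± 0.38 (adjusted p = 1.98e-07). Slk, a kinase that phosphorylates ezrin, rose by 1.53 ± 0.18 (adjusted p = 2.48e-05). In co-cultured organoids 0 of 16 were called by limma, and 3 had an unadjusted p under 0.05.

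Of 12 relatives of the microvillar proteins, 6 were called higher in adenoma than in monocultured organoids, 1 lower and 5 were not called. Their differences were positive for 9 and negative for 3, with a median of 0.91. Of all genes 22.5% were called higher and 18.5% lower. Msn, moesin, the ezrin relative of most other cell types, read 3.68 and 3.53 in organoids and 10.26, 10.63, 10.14 and 9.49 in adenoma, a rise of 6.52 ± 0.24 (adjusted p = 2.16e-09), while Ezr differed by 0.14. A second, dimmer probe set of Msn stayed dim in every group mean (1.68 to 2.13). Vill, villin-like, read 3.85 and 3.41 in organoids and 6.74, 6.94, 8.07 and 7.75 in adenoma, a rise of 3.75 ± 0.35 (adjusted p = 4.22e-06), while Vil1 fell. The plastins Lcp1 and Pls3 rose by 2.13 ± 0.43 and 1.23 ± 0.26 (adjusted p = 0.00164 and 0.00245), while Pls1 fell. Avil, advillin, rose by 1.15 ± 0.25. Without P28 and Pl_III Lcp1 and Avil were not called (adjusted p = 0.0569 and 0.0523), and 5 of 12 relatives were higher.

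Among myosins, Myo1c rose in adenoma by 1.75 ± 0.20 (adjusted p = 2.25e-05) while Myo1a fell, and Myo7a fell by 3.20 ± 0.28 (adjusted p = 2.34e-06) along with Myo7b. Myo1c was also called in co-cultured organoids, where it read 9.36 and 9.51 against 7.60 and 7.74 in monoculture, a rise of 1.77 ± 0.23 (adjusted p = 0.00205). It was 1 of 12 relatives called in that comparison, and its call was lost in 1 of 13 alternatives. Against co-cultured organoids Myo1c in adenoma was not called (-0.02 ± 0.20, adjusted p = 0.961). There 4 of 12 relatives were called higher, Msn, Vill, Lcp1 and Avil, and 1 lower, with 19.0% of all genes called higher. Of these Lcp1 was not called without P28 and Pl_III.

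**Figure D4:**
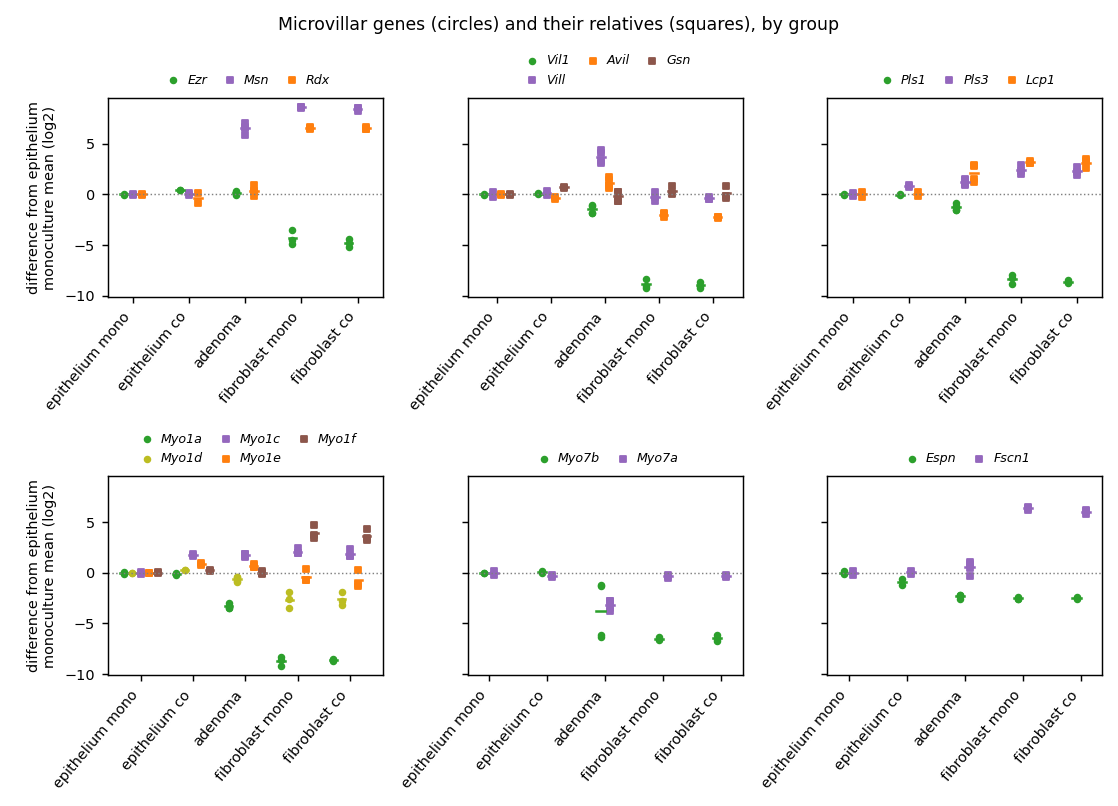
Difference from the mean of monocultured epithelium (log2, vertical axis) for 7 microvillar genes (circles) and 12 relatives or other bundling proteins (squares) in each sample of the 5 groups, with group means as short lines. In adenoma Msn, Vill, Lcp1, Pls3, Avil and Myo1c lie above 0, while Vil1, Pls1, Myo1a, Myo7b, Espn and the relative Myo7a lie below it. In myofibroblasts the circles lie below 0.

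Of 13 tested transcription factors of enterocytes, 6 fell in adenoma against monocultured organoids and 0 rose by limma (7 had an unadjusted p under 0.05). Hnf4g, a nuclear receptor of villus enterocytes, read 11.38 and 11.51 in organoids and 6.34, 6.50, 6.42 and 6.82 in adenoma, a fall of 4.93 ± 0.18 (adjusted p = 1.92e-09). Its relative Hnf4a read 11.08 and 11.15 against 10.29, 10.27, 9.48 and 9.63 and fell by 1.20 ± 0.27 (adjusted p = 0.00351). Of the intestinal homeobox genes, Cdx1 fell by 4.59 ± 0.24 (adjusted p = 3.64e-08) and Cdx2 by 1.72 ± 0.44 (adjusted p = 0.00719). Maf, which is active in villus enterocytes, fell by 4.39 ± 0.24 and Gata6 by 1.48 ± 0.18. Without P28 and Pl_III 5 factors fell, and Cdx2 was not called.

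Cdx2 differed between the adenoma pairs, at 8.52 and 8.46 in P21 and P23 and 7.04 and 6.67 in P34 and P36 (1.63 ± 0.17, adjusted p = 1.29e-04), and Isx, a homeobox factor of the intestine, at 7.39 and 6.95 against 2.96 and 2.65 (4.37 ± 0.40, adjusted p = 3.74e-05). Gata4 went the other way, at 8.04 and 7.87 against 9.51 and 9.80 (-1.70 ± 0.24, adjusted p = 0.00111). So did Klf4, at 7.44 and 7.67 against 9.42 and 9.59, a difference of -1.95 that was not called. Of the 13 factors 9 had a positive difference between the pairs and 4 a negative one. Hnf4g and Cdx1 were not called between the pairs (-0.20 ± 0.20 and 0.14 ± 0.28, adjusted p = 0.799 and 0.946). In co-cultured organoids 0 of 13 factors were called by limma, with 4 at an unadjusted p under 0.05. Hnf4g was -0.68 ± 0.21 (adjusted p = 0.0988), and Isx read 9.68 and 9.38 against 5.74 and 6.92 in monoculture, a difference of 3.20 ± 1.33 that was not called (adjusted p = 0.240).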

How the data were processed

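The authors deposited log2 levels of probe sets. The submitters' processing notes name RMA for these values and give no version of it. RMA subtracts background, brings arrays to a like distribution and combines the probes of a set, so low values are compressed and a shift of most transcripts would be hidden. Each array took 150 ng of amplified RNA in 1 colour on a whole-transcript design, per the labels' protocols. For the array's library file and genome build: not given in the sources used here. The table held 41345 probe sets on 16 arrays, of which the platform annotation gave 23521 a single symbol, 1814 several and 16010 none. Each gene was read from its brightest probe set with 1 symbol.

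Technical repeats of P21 and P34 were averaged, which left 14 samples of 9 animals. The third myofibroblast monoculture array names different animals in its title and source name, and its title was followed. Nothing states whether replicate cultures were prepared separately beyond the animal, so p-values measure the spread between these samples. Genes whose highest group mean passed the 30th percentile (18095) entered limma 3.58.1 (R 4.3.3), with 5 group means with 1 shared spread, or 6 for the T2 comparison, 2-sided, with Benjamini-Hochberg adjustment and called at an adjusted p under 0.05. Deviations from group means correlated within animals at 0.33 for epithelium and 0.62, 0.51 and 0.79 for myofibroblasts, and the labels give the same animals, so the animal was a replicate block in an alternative. The fits were tested on simulated data. Precision is limited by how few arrays each group has.

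The members, gene lists and tests were chosen with earlier results of these data known. All members are accounted for. Further genes are named where called or, for partners and paralogs of a member, where they bear on it. Of the named lists, Pdzk1, Eps8l1, Eps8l2, Eps8l3, Defa17 and some other genes were not analysed here. Promoters are RefSeq sequences of build GRCm38.p6.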

Additional observations from a re-analysis of the deposited data

Results flagged for a closer look

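Within the 4 adenoma animals, 3 of 33 genes had a highest or lowest animal that stood apart from the other 3 by Dixon's ratio, the gap to the nearest animal over the whole range, where chance marks about 1 in 20 groups. Cdhr2 was low in P36 (5.77 against 7.22 to 7.30 in the others, ratio 0.943). Alpi was low in P36 (5.72 against 5.98 to 6.03, ratio 0.835). Cubn was high in P34 (3.15 against 2.95 to 2.98, ratio 0.849), at levels near the dim level.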

How the results depend on the processing

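The count of 2 lower calls in co-cultured organoids depended on the setting, as did the genes called. It was 0 with only the compared groups fitted, 1 with cyclic loess scaling or a trended robust prior (Mep1a in both), 0 without P28 and Pl_III, 6 with the animal as a replicate block, 3 with the adenoma split by T2 (an alternative chosen after seeing the data, which added Mme) and between 0 and 2 on leaving out single samples (Cubn and Lct without the monoculture of P30, Treh without its co-culture, Espn without the co-culture of P28), where the median ran from -0.34 to -0.062. The difference between responses was called lower in 0 genes, but in 1 with only the compared groups fitted (Mep1a), 1 with the replicate block (Lct), 1 with the T2 split (Mep1a) and between 0 and 1 on leaving out single samples. Its median was -0.058 without P28 and Pl_III and ran from -0.34 to -0.025 without single samples. In myofibroblasts the median was -0.014 without P28 and Pl_III and ran from -0.10 to -0.0027 without single samples. The replicate block changed no member's call in myofibroblasts. With all adenoma arrays and the animal as a random block, Cubn and Lgals4 were added against co-cultured organoids, and between the adenoma pairs Ace was added and Sis lost.

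Against monocultured organoids the adenoma median was -5.17 without P21 and P23 and -3.45 without P34 and P36, and against co-cultured organoids -4.50 and -3.20, with -4.34 to -3.54 without single samples. Of the members called, 23 of 28 and 21 of 27 kept their call in every alternative run. The cause of these changes was not tested. No result changed sign past a threshold. Low signal limits Sis, Enpp7 and Tmprss15, whose adenoma means are dim. In P34 and P36 the means of Dpp4, Mep1a, Xpnpep2, Mme and Clca4b are dim too, which limits the comparison of the adenoma pairs. Lct, Treh and Enpep are near the dim level in every adenoma animal, which limits that comparison as well.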
